A study of Mus musculus with 10 samples.

Results

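The transcripts described here are those of the mitochondrial respiratory chain and ATP synthase in the mouse esophagus, taken from both genomes that encode them. Members were chosen by name: every row whose gene symbol starts with mt-, and every protein-coding row for the subunit families Nduf (A, B, C, S and V series), Sdha to Sdhd, Uqcr, Cox4 to Cox8 and Atp5. These names took 131 of the 54446 rows of the table. Of the 131, 37 are encoded in mitochondrial DNA (13 mRNAs, 2 rRNAs and 22 tRNAs) and 94 in the nucleus. The nuclear rows comprised 36 subunit rows of complex I, 4 of complex II, 8 of complex III, 18 of complex IV and 17 of complex V, together with 8 complex I assembly factors and 3 other proteins whose symbols fall within the families. A further 13 rows with matching names were not protein-coding and were left out. One of them, Ndufb1-ps, annotated as a bidirectional promoter lncRNA, had 698 (A2) to 1528 (D2) normalized counts per library. RNA came from the esophagus of C57BL/6 mice of WT genotype in all 10 libraries. The vehicle group held 5 libraries (A1 to A5) and the OXA group 5 (C1 and D1 to D4), OXA being oxazolone, a contact allergen used here to model eosinophilic esophagitis. No letter occurs in both groups, so any difference that the letters mark cannot be told apart from OXA. The labels used here give neither age, sex, dose, route nor schedule, nor what the letters A, C and D stand for. They also do not say whether each library is a separate animal, so p-values reflect sample-to-sample spread only, which may be technical.

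The respiratory chain passes electrons from NADH (complex I) and succinate (complex II) through complex III to complex IV, where oxygen is reduced, and the proton gradient built on the way drives ATP synthase, complex V. Complexes I, III, IV and V are assembled from subunits of both genomes, whereas complex II is encoded wholly in the nucleus. The mitochondrial genome is transcribed as long precursors from which its rRNAs, tRNAs and mRNAs are cut, and the mouse esophagus has a thick coat of striated muscle, a tissue rich in mitochondria, beneath its squamous epithelium.

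Recovered depth was 3675479 (D2) to 12108822 (A4) reads per library, and A5, D2 and D4 were the shallowest. The label of the tissue was met by its markers: the 10 squamous epithelium markers, mostly the keratins Krt4 and Krt13, took 11.0% ± 1.78 (SD, n = 5) of reads in vehicle and 5.85% ± 1.62 in OXA, and the 24 skeletal muscle markers took 3.68% ± 0.589 and 3.46% ± 1.99. Single squamous markers went both ways: Krt4 and the basal keratin Krt15 were called lower (-1.53 and -2.03 on the log2 scale), the basal keratin Krt14 and the desmosomal cadherin Dsg3 higher (2.18 and 1.91), and the other 6, Krt13 among them (-0.83), did not pass. The 15 leukocyte markers went from 0.0287% to 0.0977% and the 14 proliferation genes from 0.0151% to 0.0897%, with no overlap between the groups in either. In bulk RNA, fewer cells of a type and less RNA per cell cannot be told apart.

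Values are normalized counts, that is, reads divided by a size factor per library. CEL-Seq primes on adenine tails and reads the 3′ end of a transcript. The annotated 3′ ends of the genes the results turn on are shown first. The sequences are from GRCm38, 5′ to 3′ on the transcript's own strand. They are the last 30 bases of both rRNAs, of mt-Nd4l and of the 3 mRNAs without an encoded stop codon. Capitals mark the stop codon, or the single T that stands in its place.
mt-Rnr1 (12S rRNA), chrM:70-1024: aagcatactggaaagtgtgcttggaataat
mt-Rnr2 (16S rRNA), chrM:1094-2675: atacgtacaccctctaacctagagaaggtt
mt-Nd4l, chrM:9877-10173: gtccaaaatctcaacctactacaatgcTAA
mt-Nd4, chrM:10167-11544: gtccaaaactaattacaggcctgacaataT
mt-Co3, chrM:8607-9390: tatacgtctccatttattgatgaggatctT
mt-Cytb, chrM:14145-15288: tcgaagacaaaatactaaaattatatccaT
Of the 13 mRNAs 10 ended in a complete stop codon, and mt-Nd4, mt-Co3 and mt-Cytb ended in T alone, which the adenine tail completes to TAA. All 6 rows shown lie on the plus strand, where 28 of the 37 mitochondrial rows lie. mt-Nd6 is the only protein-coding gene among the 9 rows of the minus strand. mt-Nd4l shares its last 7 bases with the start of mt-Nd4, and mt-Atp8 shares 43 with mt-Atp6 (chrM:7927-7969, both on the plus strand). The annotated ends of mt-Nd4l and mt-Atp8 thus lie inside the next gene and need not be tailed ends of an RNA. How reads that fall on 2 genes were counted is not stated, so the split of reads within these pairs is uncertain. Mitochondrial rRNAs carry only short adenine tails, so their counts measure the tailed or otherwise primed part of the rRNA.

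Few transcripts of the respiratory chain passed the test in OXA, and the subunits that did were nuclear ones of complexes I and V. Of the 131 members 106 had a mean of at least 5 normalized counts and were tested with limma on log2(value + 1) over all genes. At an adjusted p under 0.05, 3 were higher in OXA, 11 were lower and 92 did not pass, so 13.2% of the tested members were called, against 29.9% of the 14712 genes tested (15.7% higher and 14.2% lower). Both groups' libraries were without overlap for 3 members higher and 8 lower in OXA, against 22.4% of all genes. By complex, 7 of 36 nuclear subunits of complex I were called, none of 4 in complex II, none of 8 in complex III, none of 15 in complex IV and 2 of 16 in complex V. None of the 13 mitochondrial mRNAs was called. For complexes II, III and IV together, limma and edgeR gave 0 calls and 2 subunits, both of complex IV, with an unadjusted p under 0.05 in limma. DESeq2 also called none of them.

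**Figure D1:**
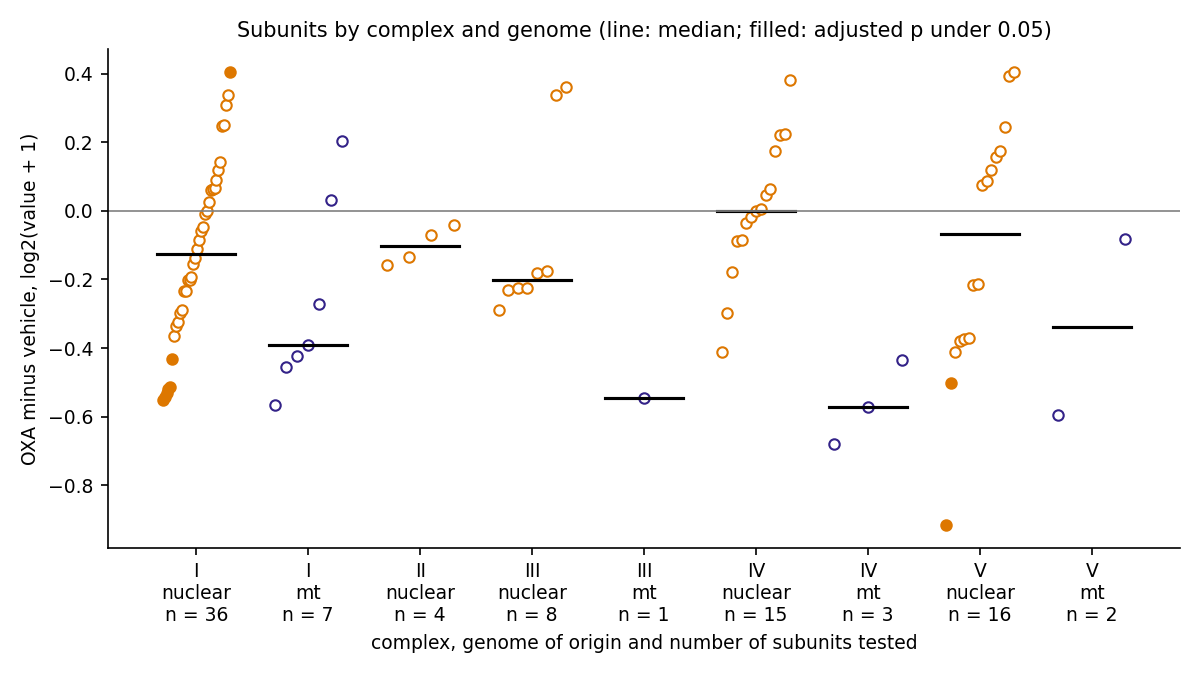
Fitted difference (OXA minus vehicle, log2(value + 1) scale, vertical axis) of each tested subunit by complex and genome of origin, with the median as a line and called subunits filled. Called nuclear subunits sit in complexes I and V, and the medians of the mitochondrial mRNAs lie below those of the nuclear subunits in complexes I, III, IV and V.

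Counts of the mitochondrial 12S rRNA were higher in OXA, and those of the 16S rRNA had an estimate above 0 that did not pass. For both, the counts measure only the tailed or otherwise primed part of the rRNA. mt-Rnr1, the 12S RNA of the small mitochondrial ribosomal subunit, had 7082, 6409.9, 3568, 3161 and 2587 normalized counts in A1 to A5, and 8500.4, 13982, 12851, 11895 and 8903 in C1 and D1 to D4. Every OXA library was above every vehicle library. The means were 4562 ± 2038 and 11226 ± 2424 (SD, n = 5), and mt-Rnr1 was 2.46-fold higher in OXA (log2 difference 1.39 ± 0.28, adjusted p = 0.00207). The call held in each of 22 alternative analyses.

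mt-Rnr2, the 16S rRNA of the large subunit, had 56313, 67706, 44867, 51529 and 24933 normalized counts in A1 to A5 and 56053, 97603, 87108, 82476 and 64882 in C1 and D1 to D4. The groups overlapped: C1 lay below A1 and A2, and D4 below A2. The log2 difference was 0.71 ± 0.35, adjusted p = 0.141, which did not pass. mt-Rnr2 was called higher with a skeletal muscle score in the model (adjusted p = 0.0204) and by DESeq2 (adjusted p = 0.0268), and not in the other 20 alternatives.

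**Figure D2:**
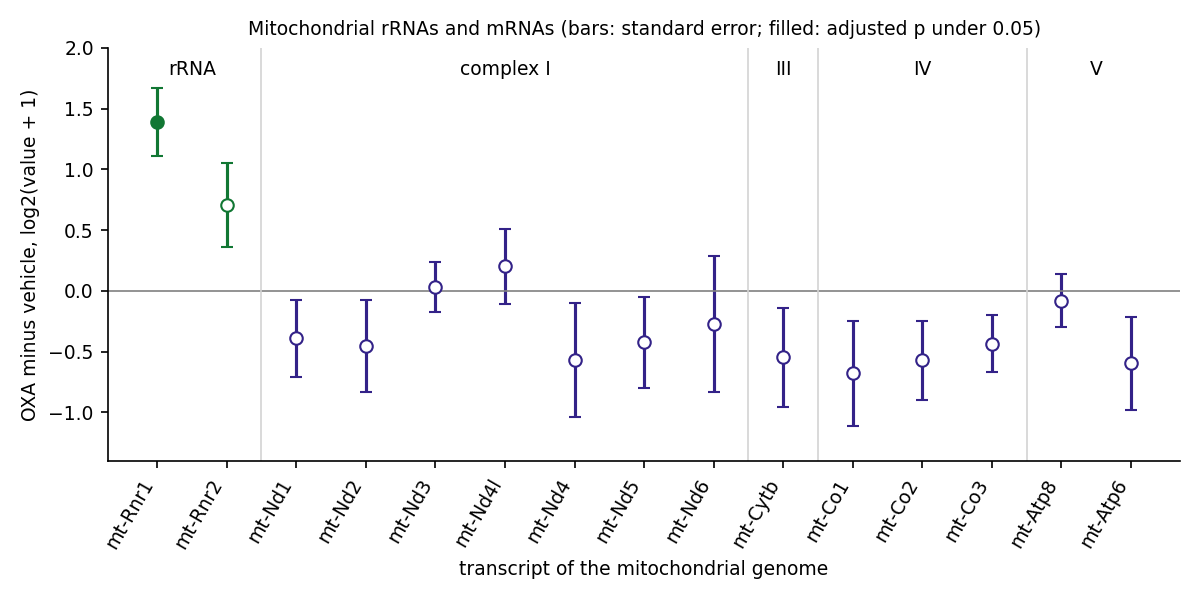
Fitted difference (OXA minus vehicle, log2(value + 1) scale) of each mitochondrial rRNA and mRNA, with standard errors. Both rRNAs lie above 0, with mt-Rnr1 at 1.39, and 11 of 13 mRNAs lie below it.

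Counted within each library, the balance of rRNA to mRNA separated the groups. Reads on the 2 rRNAs per read on the 13 mRNAs were 0.0959, 0.106, 0.0947, 0.0949 and 0.0843 in A1 to A5 and 0.195, 0.188, 0.280, 0.187 and 0.348 in C1 and D1 to D4. All 5 OXA libraries were above all 5 vehicle libraries, and D2 and D4, 2 of the 3 shallowest libraries, had the highest ratios. The mean ratio was 0.0951 ± 0.00755 in vehicle and 0.240 ± 0.0719 in OXA, a log2 ratio of 1.33, and 0.96 without A5, D2 and D4. Being a ratio within a library, it does not depend on the scaling between libraries. The 12S rRNA also took a larger part of the rRNA reads in OXA: reads on mt-Rnr1 per read on mt-Rnr2 ran from 0.0613 to 0.126 in vehicle and from 0.137 to 0.152 in OXA, again without overlap.

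The 13 mitochondrial mRNAs together took 10.2, 11.0, 7.14, 9.16 and 4.48% of reads in A1 to A5 and 5.65, 9.96, 5.37, 8.29 and 3.45% in C1 and D1 to D4. The groups overlapped over most of their range, with means of 8.39% ± 2.62 in vehicle and 6.54% ± 2.57 in OXA. Among the vehicle libraries A5 had the lowest level for 10 of the 13 mRNAs, and among the OXA libraries D4 had the lowest for 10 and D1 the highest for 11. Over all genes tested, A5 was lowest for 26.8%, D4 lowest for 24.8% and D1 highest for 20.5%. The skeletal muscle markers took 3.92, 4.29, 3.42, 3.96 and 2.78% of reads in A1 to A5 and 2.43, 6.42, 2.21, 4.58 and 1.68% in C1 and D1 to D4, likewise lowest in A5 among vehicle libraries and, among OXA libraries, highest in D1 and lowest in D4. Of 23 muscle markers tested, 1 was called higher (Tnnt1) and 4 lower (Myh4, Tnni2, Pvalb and Myoz1), 21.7% against 29.9% of all genes. Their median difference was -0.44. Their part in the spread of the mitochondrial mRNAs was not tested, and a fit with a muscle score is given below.

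**Figure D3:**
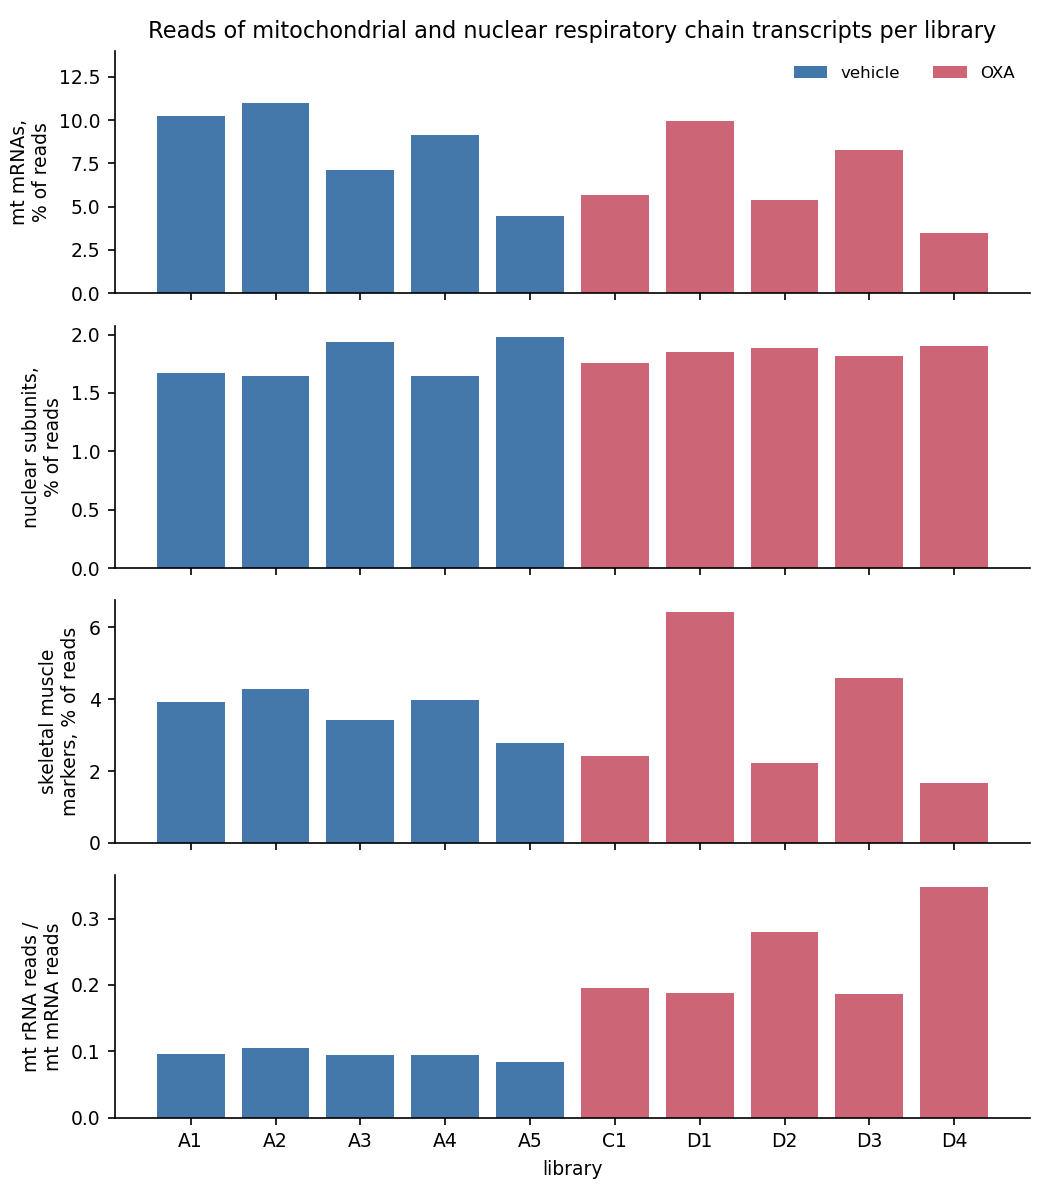
Share of reads (%) of the 13 mitochondrial mRNAs, of the nuclear subunits and of 24 skeletal muscle markers, and the ratio of mitochondrial rRNA to mRNA reads, in each library (bars). The ratio is at most 0.106 in vehicle and at least 0.187 in OXA, while the other 3 measures overlap.

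No mitochondrial mRNA passed the test, and the estimates were mostly below 0: 11 of 13 lay below 0 (10 when scaled to all reads), with a median of -0.43 against -0.01 over all genes. limma gave 0 calls and 0 mRNAs at an unadjusted p under 0.05, edgeR 0 calls and 1, and DESeq2 2 calls and 3. In complex I, mt-Nd4, a membrane-arm subunit, had 96299 ± 36308 normalized counts in vehicle and 68637 ± 35329.9 in OXA (-0.57 ± 0.47, adjusted p = 0.390), mt-Nd1 58236 ± 12827 and 44949 ± 13419.8 (-0.39 ± 0.31, adjusted p = 0.375) and mt-Nd2 46980.1 ± 15259 and 35722 ± 16424 (-0.46 ± 0.38, adjusted p = 0.388). The other 4 differences of complex I were -0.42 for mt-Nd5, -0.27 for mt-Nd6, 0.03 for mt-Nd3 and 0.20 for mt-Nd4l. The SDs within groups were large beside these differences, with a median SD of 0.47 in vehicle and 0.67 in OXA on the log2 scale over the 13 mRNAs.

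mt-Cytb, the cytochrome b of complex III, had 111348, 123945, 89517, 102314 and 56105 normalized counts in A1 to A5 and 59968, 106372, 55371, 92587 and 32625 in C1 and D1 to D4. C1, D1 and D3 lay within the vehicle range and D2 and D4 below it, and the difference of -0.55 ± 0.41, adjusted p = 0.334 did not pass. Among the catalytic subunits of complex IV, mt-Co1 had the lowest estimate of the 13 mRNAs, with 65195, 53906, 38390.4, 58164 and 23881 in A1 to A5 and 21191, 53591, 32586, 43363 and 11063 in C1 and D1 to D4 (-0.68 ± 0.43, adjusted p = 0.252). mt-Co2 differed by -0.57 ± 0.32, adjusted p = 0.199 and mt-Co3 by -0.43 ± 0.24, adjusted p = 0.183. DESeq2 called both lower (adjusted p = 0.0324 for mt-Co2 and 0.0207 for mt-Co3), as did quantile normalization for mt-Co2 (0.0263). In complex V, mt-Atp6, part of the proton channel, differed by -0.59 ± 0.38, adjusted p = 0.261 and mt-Atp8 by -0.08 ± 0.22, adjusted p = 0.807.

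With the mean log2 value of the muscle markers as a covariate, the median of the 13 mRNAs was -0.26. In that fit mt-Nd4l alone was called, higher in OXA (0.42, adjusted p = 0.0461). As reported, without the covariate, mt-Nd4l did not pass (0.20 ± 0.31, adjusted p = 0.653), nor did it in the other 21 alternatives. The share of mt-Nd4l in the mitochondrial mRNA pool also differed. That share comes from the same counts, so it is no independent evidence for the call. mt-Nd4l took 0.226, 0.227, 0.207, 0.189 and 0.215% of the mitochondrial mRNA reads in A1 to A5 and 0.280, 0.392, 0.355, 0.394 and 0.339% in C1 and D1 to D4. Those of mt-Atp8 were 0.0699, 0.0730, 0.0760, 0.0675 and 0.0680% and 0.0819, 0.0774, 0.103, 0.0843 and 0.144%. For these 2 genes of 13 no OXA library overlapped the vehicle libraries. On normalized counts 0 of the 13 were without overlap, against 22.4% of all genes tested. No such background exists for shares within this pool. The other 11 shares overlapped, for example mt-Nd4 at 16.8% ± 2.45 in vehicle and 16.4% ± 3.17 in OXA and mt-Cytb at 17.4% ± 0.373 and 17.1% ± 1.49. These are shares of counted reads and are compared between libraries only. The split of reads within the overlapping pairs mt-Nd4l with mt-Nd4 and mt-Atp8 with mt-Atp6 is uncertain.

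The 22 tRNAs were almost outside the reach of this library type: together they held 24.3 ± 12.4 normalized counts in vehicle and 20.4 ± 5.90 in OXA. Of the 22, 3 had no read in any library, and mt-Ti alone reached the filter (-0.89 ± 0.69, adjusted p = 0.354). mt-Tm, the methionine tRNA just upstream of mt-Nd2, was not tested. It had 1.03, 0, 1.95, 2.60 and 0 in A1 to A5 and 2.29, 7.82, 9.05, 6.70 and 9.58 in C1 and D1 to D4. D1 to D4 lay above every vehicle library and C1 did not. mt-Tm lies outside the naming rule, and mt-Tt, also not tested, went the other way. mt-Tt had 13.35, 6.75, 6.82, 3.64 and 1.43 normalized counts in A1 to A5. In C1 and D1 to D4 it had 1.53, 1.42, 0, 5.75 and 0, and the groups overlapped. These are a few reads each: the 3 reads that a count of 0 allows came to 1.56 (A4) to 5.43 (D2) normalized counts.

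The nuclear subunits of complexes I to V took a narrow range of shares of reads: 1.67, 1.65, 1.94, 1.65 and 1.98% in A1 to A5 and 1.76, 1.85, 1.89, 1.82 and 1.90% in C1 and D1 to D4. Of 79 nuclear subunits tested, 1 was called higher, 8 lower and 70 did not pass (18 had an unadjusted p under 0.05). The share called was 11.4%, against 29.9% of all genes, and the median difference was -0.08. The median size of the difference, whatever its direction, was 0.21 on the log2 scale, against 0.44 over all genes. The direction depended on the scaling. Scaled to all recovered reads instead of by the deposited size factors, the median over all genes moved from -0.01 to 0.115 and that of the nuclear subunits from -0.08 to 0.04, and 10 subunits were called higher and 5 lower. Scaled to reads on nuclear genes alone, 10 were called higher and 6 lower. The 9 subunits called on the deposited scale are described below, of which Ndufa7, Ndufb9 and Ndufs7 lie outside the naming rule and were chosen after their values were seen.

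Within the vehicle group the nuclear subunits ranked the libraries alike. A3 and A5 were the 2 highest vehicle libraries for 72 of the 79 subunits, against 24.1% of all genes tested. This was noticed in the data. The summed squamous epithelium markers were also highest in A3 and A5, at 11.6% and 13.8% of reads against 9.32% to 10.4% in A1, A2 and A4, and their part in the pattern was not tested. The counts of calls moved with single libraries: 4 subunits were called lower without A3, 5 without A5 and 13 without D2, while the number called higher was 3 without A5, 2 without D2, 1 without A3 and 0 without any one of A1, A2, A4, C1, D1, D3 or D4.

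**Figure D4:**
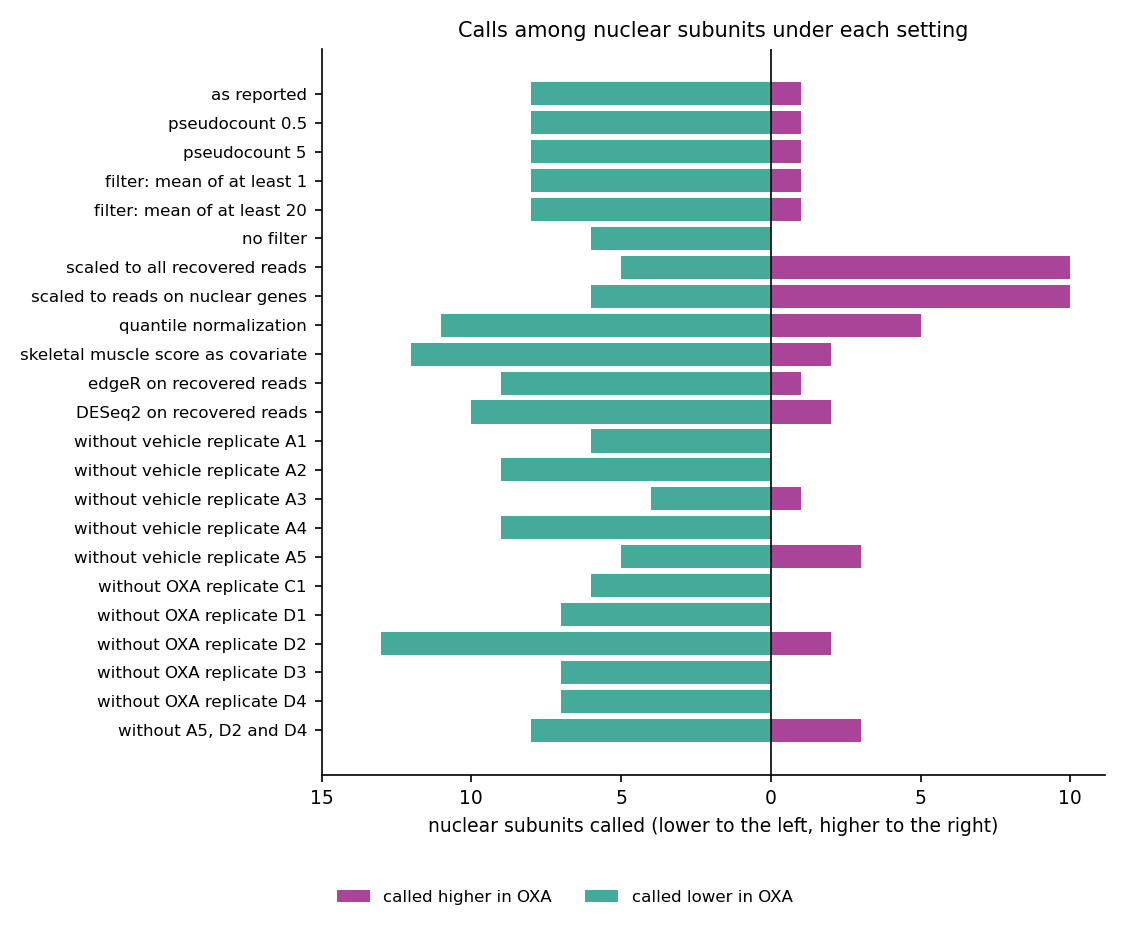
Number of nuclear subunits called lower (left) and higher (right) in OXA under each analysis. As reported there are 8 lower and 1 higher, and both scalings to reads give 10 higher.

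In complex I, 6 nuclear subunits were lower in OXA and 1 higher, of 36. That is 19.4% called, against 29.9% of all genes tested, of which 14.2% were called lower and 15.7% higher. Of the 7 nuclear core subunits, which carry the flavin and iron-sulfur centres, Ndufv1 and Ndufs7 were called lower (28.6% called). Ndufv1, the flavoprotein that takes electrons from NADH, had 489, 508, 477, 498 and 585 normalized counts in A1 to A5 and 334, 417, 284, 448 and 295 in C1 and D1 to D4, without overlap (-0.54 ± 0.15, adjusted p = 0.0138). Its call was lost without A5, D2 and D4 (adjusted p = 0.101) and under both scalings to reads (0.0621 for all reads and 0.0693 for nuclear reads). Ndufs7, the iron-sulfur subunit next to the quinone site, had 736, 729, 787, 651 and 796 in A1 to A5 and 537, 542, 496, 625 and 407 in C1 and D1 to D4, also without overlap (-0.51 ± 0.13, adjusted p = 0.0101, and 0.0522 without A5, D2 and D4). No other core subunit passed: for example, Ndufs1, the largest iron-sulfur subunit, differed by -0.29 (adjusted p = 0.126) and Ndufv2 by 0.03.

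Among the 29 accessory subunits of complex I, 4 were called lower and 1 higher (17.2% called, against 29.9% of all genes). Ndufa6, which binds the mitochondrial acyl carrier protein, had 1096, 1124, 1543, 1249 and 1796 normalized counts in A1 to A5 and 904, 850.1, 1164, 842 and 838 in C1 and D1 to D4. D2 alone of the OXA libraries lay within the vehicle range, and the difference was -0.55 ± 0.16, adjusted p = 0.0197 (0.0530 without A3). Ndufb2 of the membrane arm had 209, 169, 283, 181 and 246 in A1 to A5 and 147, 135, 152, 139 and 166 in C1 and D1 to D4, without overlap (-0.53 ± 0.16, adjusted p = 0.0227). The call of Ndufb2 was lost without A3 (adjusted p = 0.0637) or A5 (0.0540).

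Ndufa7 (910.0 ± 221 in vehicle, 629.6 ± 121 in OXA, -0.52 ± 0.18, adjusted p = 0.0423) and Ndufb9 (861 ± 133 and 637 ± 86.7, -0.43 ± 0.14, adjusted p = 0.0348) passed narrowly. The adjusted p of Ndufa7 was 0.0569 to 0.111 without A1, A3, A5, C1, D1 or D3, and that of Ndufb9 was 0.0589 to 0.0922 without A1, A3, A5, C1 or D4. Both calls were also lost with no filter (0.0629 for Ndufa7 and 0.0569 for Ndufb9) and when scaled to all reads (0.0624 and 0.0674). That of Ndufb9 was lost as well when scaled to nuclear reads (0.0574) and without A5, D2 and D4 together (0.0669). Ndufa8, an accessory subunit on the intermembrane-space side, was the 1 nuclear subunit called higher. It had 593, 551, 818, 763 and 747 in A1 to A5 and 879, 1027, 809, 889.7 and 953 in C1 and D1 to D4, with D2 just under the highest vehicle value (0.40 ± 0.14, adjusted p = 0.0416). Its adjusted p was 0.0508 to 0.111 when A1, A2, A4, C1, D1, D3 or D4 was left out and 0.0692 with no filter. The other 24 accessory subunits did not pass, and their differences ran from -0.37 (Ndufb11) to 0.34 (Ndufa2).

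Complex II, which oxidizes succinate and also belongs to the citric acid cycle, showed no call. Its flavoprotein Sdha had 919 ± 98.8 normalized counts in vehicle and 864 ± 257 in OXA (-0.14 ± 0.19, adjusted p = 0.624), its iron-sulfur subunit Sdhb 557 ± 57.7 and 502 ± 72.6 (-0.16 ± 0.14, adjusted p = 0.403). The membrane anchors Sdhc and Sdhd differed by -0.04 ± 0.14 and -0.07 ± 0.15. Sdha varied most among the OXA libraries (855, 1096, 637, 1146 and 584 in C1 and D1 to D4), again high in D1 and D3 and low in D4. In complex III, the 2 subunits with the smallest p were Uqcrc1, a core protein (628 ± 57.9 and 534 ± 31.7, -0.23 ± 0.11, adjusted p = 0.144), and Uqcrq, a small subunit (2385 ± 539.6 and 3041 ± 554, 0.36 ± 0.18, adjusted p = 0.146). Uqcrq was called higher under both scalings to reads (0.0196 for all reads and 0.0149 for nuclear reads) and by quantile normalization (0.0340). The median of the 8 subunits was -0.20.

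Complex IV had no call among 15 nuclear subunits tested, and its median difference was 0.00. Cox6b1 of the intermembrane-space face had 2672 ± 662 normalized counts in vehicle and 3412 ± 278 in OXA (0.38 ± 0.17, adjusted p = 0.105). It was called higher under both scalings to reads (0.0116 and 0.00763), by quantile normalization (0.0104) and without A5 (0.0414). Cox6c had 4399 ± 1001 and 3297 ± 692 (-0.41 ± 0.19, adjusted p = 0.119) and was called lower with the muscle score (0.0168) and without A5, D2 and D4 (0.0350).

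Several complex IV subunits exist as a general form and a form of heart and skeletal muscle, and none of these forms passed the test. Of the muscle forms, Cox6a2 had 3689.7, 3970.3, 3639, 3447 and 3803 in A1 to A5 and 1908, 4440.4, 2966, 3608 and 2743 in C1 and D1 to D4 (-0.30 ± 0.20, adjusted p = 0.272), with D1 highest and C1 lowest. Cox7a1 differed by -0.09 ± 0.21 and Cox8b by 0.06 ± 0.19, while their general counterparts Cox6a1, Cox7a2 and Cox8a differed by -0.02, 0.05 and -0.18. Cox4i1 differed by 0.22 ± 0.14, adjusted p = 0.238 and was called higher under both scalings to reads (0.0245 and 0.0227). Its hypoxia-responsive paralog Cox4i2 was under the filter, at 4.98 ± 3.01 and 3.38 ± 2.05. Cox7b differed by -0.08 ± 0.20, and Cox6b2, a form known from testis, had 16.0 ± 6.75 and 18.2 ± 6.43 (0.17 ± 0.39). Cox7b2 and Cox8c had no read in any library.

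In complex V, Atp5j showed the largest change of any nuclear subunit. Atp5j, coupling factor 6 of the peripheral stalk that holds the catalytic head still, had 4461, 4389.5, 5523, 4085 and 5403 normalized counts in A1 to A5 and 2314, 2352, 2980.0, 2405 and 2553 in C1 and D1 to D4. The highest OXA library, D2, lay well below the lowest vehicle library, A4. Atp5j was 1.89-fold lower in OXA (4772 ± 648 against 2521 ± 272, -0.92 ± 0.14, adjusted p = 3.63e-04). Atp5d, the delta subunit of the central stalk, had 1928, 1813, 1976, 1783 and 2681 in A1 to A5 and 1369, 1442, 1448, 1392 and 1453 in C1 and D1 to D4, without overlap (-0.50 ± 0.13, adjusted p = 0.0124). Both calls held in all 22 alternatives.

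The 3 genes Atp5g1, Atp5g2 and Atp5g3 encode the same c subunit of the rotating ring. Atp5g3 had 4144, 4169, 4961, 4016 and 4835 in A1 to A5 and 5079, 5452, 5736, 5397 and 7589 in C1 and D1 to D4. All OXA libraries were above all vehicle libraries, D4 far above the rest, but the difference of 0.39 ± 0.16, adjusted p = 0.0740 did not pass. Atp5g3 was called higher in 5 of 22 alternatives, namely both scalings to reads, quantile normalization, the muscle score and DESeq2, with adjusted p-values of 0.00585 (quantile) to 0.0434 (muscle score). Atp5g1 and Atp5g2 differed by 0.12 ± 0.15 and 0.17 ± 0.16. The catalytic subunits Atp5a1 and Atp5b, alpha and beta of the head, differed by 0.08 ± 0.14 and -0.22 ± 0.17. Another stalk subunit, Atp5o, stood just outside the threshold (1655 ± 322 and 1232 ± 136, -0.41 ± 0.15, adjusted p = 0.0532). It was called lower in 7 of 22 alternatives, namely quantile normalization, the muscle score, edgeR, DESeq2 and without A2, A4 or D2. A second row of the same symbol had no read in any library.

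The largest difference of all members was that of Ndufa4l2, a hypoxia-inducible paralog of the complex IV subunit Ndufa4. Ndufa4l2 had 950.2, 1036, 1447, 1318 and 1638 normalized counts in A1 to A5 and 138, 139, 393, 279.6 and 142 in C1 and D1 to D4. All OXA libraries lay far below the lowest vehicle library, and Ndufa4l2 was 5.85-fold lower in OXA (1278 ± 285 against 218 ± 115, -2.66 ± 0.28, adjusted p = 1.69e-05). This call held in all 22 alternatives. Ndufa4 itself had 2897 ± 749 and 3433 ± 1089 (0.22 ± 0.23, adjusted p = 0.497). Reads on Ndufa4l2 per read on Ndufa4 ran from 0.389 to 0.533 in vehicle and from 0.0295 to 0.103 in OXA. Smooth muscle is known to express Ndufa4l2. Of 8 smooth muscle markers tested 0 were called higher and 3 lower, 37.5% called against 29.9% of all genes. Their median difference was -0.74, and their share of reads was 0.255% to 0.511% in vehicle and 0.177% to 0.422% in OXA. Their part in the result was not tested.

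Cox7a2l, placed outside the complexes here, was also called lower (2277 ± 378 and 1614 ± 323, -0.50 ± 0.17, adjusted p = 0.0339), with D2 inside the vehicle range. Its adjusted p was 0.0634 to 0.0845 without A3, A4, A5, C1, D1 or D3, 0.0607 with no filter and 0.0512 when scaled to all reads. Among the 8 complex I assembly factors the 2 calls (25.0%, against 29.9% of all genes) went in opposite directions. Ndufaf4 had 383, 366, 334, 364 and 280.4 in A1 to A5 and 460.3, 513, 420.0, 470.2 and 722 in C1 and D1 to D4, higher in every OXA library (0.56 ± 0.16, adjusted p = 0.0154), and this call held in all 22 alternatives. Ndufaf6 had 102, 106, 140.3, 119 and 112 and 88.5, 78.2, 86.9, 89.1 and 62.3, lower in every OXA library (-0.51 ± 0.16, adjusted p = 0.0300). The call of Ndufaf6 was lost without A3 (adjusted p = 0.0815), A4 (0.0659) or D4 (0.0523), without A5, D2 and D4 together (0.0744) and under both scalings to reads (0.0903 for all reads and 0.0886 for nuclear reads). The remaining 6 factors did not pass, and their differences ran from -0.54 (Ndufaf3) to -0.05 (Ndufaf2).

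**Figure D5:**
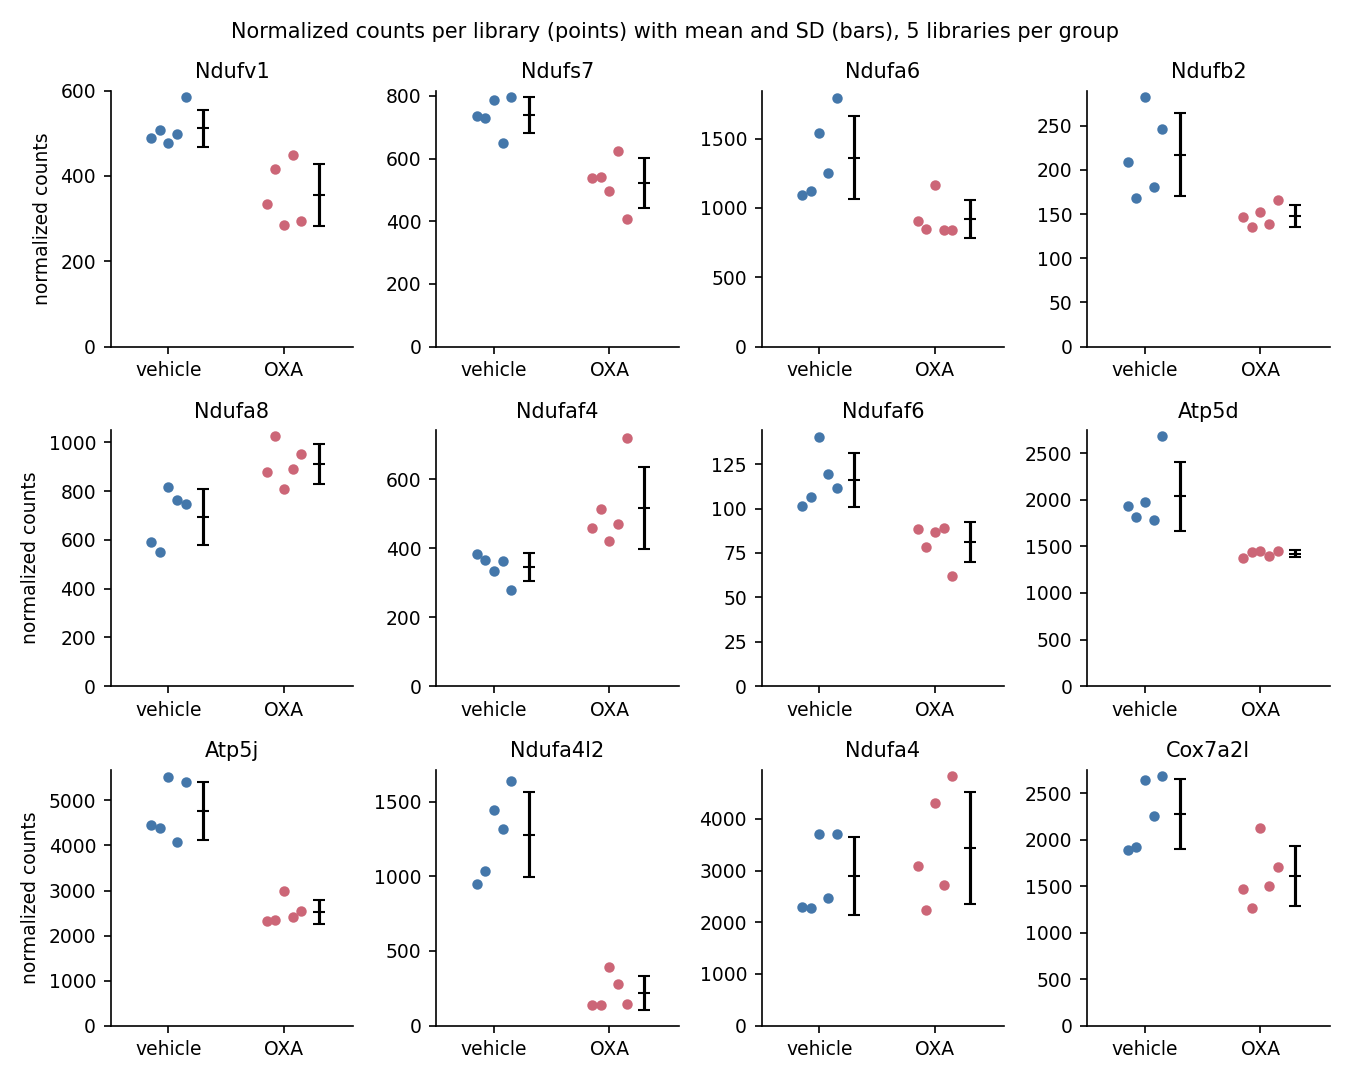
Normalized counts (vertical axes, from 0) of 12 nuclear members in each library (points), with mean and SD at the right of each group, n = 5. Atp5j and Ndufa4l2 show the widest gaps between groups, Ndufa8 and Ndufaf4 are higher in OXA, and Ndufa4 overlaps.

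The promoters of the nuclear subunits were searched for motifs, which their selection by name did not use. RefSeq promoters (GRCm38.p6, 250 bases before to 50 after the start) were matched for 67 of the 82 nuclear subunit genes. The core site of NRF1, a transcription factor known to act on many respiratory chain genes, searched as GCGCANGCGC on both strands, was found in 17 of the 67 (25.4%), against 7.17% of 17492 genes. The other motifs searched were TCAAGGTCA (estrogen-related receptors) in 2.99% against 0.377%, AAGATGGCG (YY1) in 10.4% against 2.14%, and TATAAA in 10.4% against 14.8%. A match is a string of letters and no evidence of binding. Of the 13 nuclear members called, 10 had a promoter in the table and 3 held the NRF1 core, and the windows below show that these lay both in genes called higher and in a gene called lower. Capitals mark the match, which on the opposite strand reads GCGCNTGCGC.
Ndufa6 (lower in OXA), chr15:82354244-82354283, minus strand: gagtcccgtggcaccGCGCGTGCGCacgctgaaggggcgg
Ndufa8 (higher in OXA), chr2:36049344-36049383, minus strand: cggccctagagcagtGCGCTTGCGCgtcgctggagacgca
Ndufaf4 (higher in OXA), chr4:24897955-24897994, plus strand: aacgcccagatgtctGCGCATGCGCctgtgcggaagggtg
Nrf1 itself differed by 0.12 ± 0.16, adjusted p = 0.607, Esrra by 0.25 ± 0.14, adjusted p = 0.180, and the coactivator Ppargc1a, a driver of mitochondrial biogenesis, by -0.23 ± 0.32, adjusted p = 0.625. Of 15 biogenesis regulators (6.67% called, against 29.9% of all genes) only the nuclear receptor Ppard was called, higher in OXA (201 ± 15.3 and 264 ± 23.0, 0.39 ± 0.12, adjusted p = 0.0306).

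Lists of genes around the chain are given for context; 29.9% of all genes tested were called, and 11.4% of the tested nuclear subunits. Of 23 electron carriers and feeders tested, 3 were higher and 9 lower, with a median of -0.37 (52.2% called). Cycs, the cytochrome c that links complexes III and IV, was higher (2249 ± 422 and 3226 ± 187, 0.54 ± 0.15, adjusted p = 0.0141), as was Gpd2, the glycerol-3-phosphate dehydrogenase (0.73 ± 0.16, adjusted p = 0.00348). Both chains of the electron transfer flavoprotein, which brings in electrons from fatty acid oxidation, were lower (Etfa -0.87 ± 0.11, adjusted p = 6.87e-05; Etfb -0.77 ± 0.15, adjusted p = 0.00149). Of 24 citric acid cycle and pyruvate dehydrogenase genes, 3 were higher and 11 lower, with a median of -0.46 (58.3% called). Pdk4, the kinase that switches off pyruvate dehydrogenase, was lower (1153 ± 317 and 171 ± 83.0, -2.89 ± 0.36, adjusted p = 5.06e-05), as was Suclg1 (-0.81 ± 0.16, adjusted p = 0.00148), while Pdhb (0.52 ± 0.14, adjusted p = 0.0103) and Dlst (0.46 ± 0.15, adjusted p = 0.0301) were higher. The difference in the share of calls between these lists and the subunits or all genes was not tested.

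Of 39 further assembly factors of the chain tested, 5 were higher and 6 lower, with a median of -0.16 (28.2% called, near the share over all genes). The complex IV factors Cmc2 (1.09 ± 0.17, adjusted p = 3.50e-04) and Coa5 (0.45 ± 0.12, adjusted p = 0.0136) were higher, and Surf1 (155 ± 11.5 and 72.5 ± 15.3, -1.11 ± 0.17, adjusted p = 3.25e-04), a complex IV factor, and Acad9 (-1.03 ± 0.18, adjusted p = 7.37e-04), a complex I factor, were lower. Of 11 genes of adenine nucleotide exchange and uncoupling 0 were higher and 3 lower (27.3% called), among them the uncoupling protein Ucp3, which is known from muscle (99.5 ± 28.0 and 26.8 ± 3.96, -1.82 ± 0.23, adjusted p = 7.02e-05), and the outer-membrane channel Vdac1 (-0.57 ± 0.13, adjusted p = 0.00563).

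For the expression of the mitochondrial genome, 22 replication and transcription genes gave 0 higher and 4 lower (18.2% called, median -0.27), among them the transcription factor Tfb2m (239 ± 19.3 and 174 ± 25.0, -0.46 ± 0.14, adjusted p = 0.0198) and Mterf1b (-2.30 ± 0.60, adjusted p = 0.0109). Tfam, which packages and transcribes mitochondrial DNA, differed by -0.37 ± 0.14, adjusted p = 0.0596, which did not pass. Of 28 mitochondrial RNA processing genes 2 were higher and 3 lower (17.9% called, median -0.09). Lrpprc, which stabilizes mitochondrial mRNAs, was higher (0.42 ± 0.14, adjusted p = 0.0295), as was Tbrg4 (0.67 ± 0.22, adjusted p = 0.0330), while the helicase Supv3l1 of the mitochondrial RNA degradation complex (46.8 ± 6.68 and 21.3 ± 6.03, -1.13 ± 0.25, adjusted p = 0.00340) and Hsd17b10, a subunit of mitochondrial RNase P (-0.47 ± 0.13, adjusted p = 0.0130), were lower. A list of mitochondrial ribosomal proteins, added after the rRNA values were seen, gave 6 higher and 8 lower of 77 tested (18.2% called, median -0.14). Mrpl37 (0.44 ± 0.13, adjusted p = 0.0210) and Mrps11 (0.71 ± 0.21, adjusted p = 0.0220) were higher, and Mrpl39 (-0.70 ± 0.17, adjusted p = 0.00596) and Mrpl21 (-0.60 ± 0.14, adjusted p = 0.00476) were lower.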

How the data were processed

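CEL-Seq values of 10 libraries (5 vehicle, 5 OXA) were analysed. The values, as deposited, hold a signal for each gene and library. The values themselves show that these are counts over 1 size factor for each library. Dividing by each library's step gave whole reads for 100% of values (tolerance 0.006). Per the submitters' processing notes, the build was GRCm38, and HTSeq 0.11.2, TopHat2 2.1.0 and DESeq2 1.18.1 were among the tools, without a stated role. The strand setting is not stated, nor is the treatment of reads matching several genes, which bears on nuclear copies of mitochondrial genes and on processed pseudogenes.

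limma 3.58.1 (R 4.3.3) with a mean-variance trend was fitted to log2(value + 1), two-sided, for the 14712 genes whose mean reached 5. Calls were made at a Benjamini-Hochberg adjusted p under 0.05. Differences carry limma's standard errors, levels are means ± SD (n = 5), and folds are ratios of group means. On the recovered reads edgeR 4.0.16 called 2411 genes higher and 1972 lower, and DESeq2 1.42.0 called 2627 and 2249, against 2309 and 2085 for limma. The fit was also run on simulated counts of independent genes with a fixed dispersion. That setting lacks the spread shared between genes of a library, so no conclusion on the calls is drawn from it. No use of molecular identifiers is stated, so the floors of 3 reads cover counting error only.

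Ndufa4 was placed in complex IV. The members and the gene lists were chosen with earlier results of these data known. Named genes were all mitochondrial mRNAs and rRNAs, the paralog sets, all Sdh subunits, the up to 3 largest called differences per direction and complex (or the 2 smallest p where fewer than 2 were called), the called assembly factors with the smallest p, and the 2 called genes with the smallest p per direction in each list. Genes outside the rule are given to complete a group or with a remark. Alternatives were the pseudocount, the filter, 3 scalings, a muscle score, edgeR, DESeq2 and leaving out libraries, 22 in all.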

Additional observations from a re-analysis of the deposited data

Results flagged for a closer look

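In 6 of 124 groups of 5 libraries checked, 1 library stood far from the other 4 (a gap to the next above Dixon's critical share of the range), about what chance gives at 1 in 20. In OXA these were D2 for Cox6b2 (low, 7.24 normalized counts), for Cox7b (high, 1282) and for Ndufa6 (high, 1164), and D4 for Atp5g3 (high, 7589). In vehicle they were A5 for Ndufv1 (high, 585) and for Atp5d (high, 2681). A5, D2 and D4 are the 3 shallowest libraries, and the part of depth in these values was not tested. Without A5, D2 and D4 the calls of Ndufa6 and Atp5d held and that of Ndufv1 did not.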

How the results depend on the processing

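The number of nuclear subunits called higher, 1 as reported, was 0 with no filter, 10 when scaled to all reads, 10 when scaled to nuclear reads, 5 after quantile normalization, 2 with the muscle score, 2 with DESeq2 and 3 without A5, D2 and D4, and ranged from 0 to 3 when single libraries were left out. The number called lower, 8 as reported, was 6 with no filter, 5 when scaled to all reads and 6 when scaled to nuclear reads. It was 11 after quantile normalization, 12 with the muscle score, 9 with edgeR and 10 with DESeq2. When single libraries were left out it ranged from 4 to 13. For the mitochondrial mRNAs, 1 was called higher with the muscle score, 1 lower after quantile normalization and 2 lower with DESeq2, against 0 as reported in each direction. The log2 ratio of the summed nuclear subunits was 0.05 as a share of reads and -0.084 as summed normalized counts, and that of mitochondrial rRNA to mRNA was 1.33, and 0.96 without A5, D2 and D4. The cause of these shifts was not tested. Of 49 named members tested, 14 were called, and 5 of these (mt-Rnr1, Ndufa4l2, Atp5j, Atp5d and Ndufaf4) kept the call in all 22 alternatives. Of the 35 not called, 26 were called in none. No named difference changed sign while called. Depth limits the tRNAs and Cox4i2, which have few reads per library. No paired analysis was possible because nothing in the labels ties a vehicle library (A1 to A5) to an OXA library (C1 and D1 to D4, with the same digit on C1 and D1).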
